A study of Mus musculus with 4 samples.

Results

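Cadherins are the calcium-dependent adhesion molecules by which cells of a tissue hold to each other and sort from their neighbours. Here 10 of their genes were read in sorted cell populations from a study of midbrain dopaminergic (mDA) progenitors. The genes were chosen by name (Cdh1, Cdh2, Cdh3, Cdh4, Cdh6, Cdh7, Cdh8, Cdh11, Cdh13 and Cdh20), with the transcript clusters whose only gene symbol is one of these names. Each gene had 1 such cluster, so the 10 genes stand for 10 of the 19938 genes that the array measured through a single symbol. Another 3 clusters name Cdh11 together with other genes and were not used.

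Expression was measured in 4 sorted populations with 1 array for each, and without replicates. Mouse ESCs of a 129SVEV line with GFP knocked in at Lmx1a were differentiated as floating aggregates with SHH and FGF8b, and on day 9 the GFP+ cells were sorted by CORIN. The CORIN+LMX1A::GFP+ population is called cultured CORIN+ cells from here on, and its CORIN-LMX1A::GFP+ counterpart cultured CORIN- cells. CORIN+ and CORIN- cells were sorted from the ventral midbrain (VM) of C57BL/6N fetuses at E11.5, with no GFP gate, and the number of fetuses pooled is not given in the sources used here. At least 100000 cells of each population gave RNA. CORIN, a protease of the cell membrane, marks the floor plate, and LMX1A acts in mDA progenitors as a transcription factor. Culture, strain, stage and gate differ together between the ESC-derived and fetal populations and cannot be told apart. The values are log2 signals per transcript cluster, so a difference of 1 is 2-fold. They compare 1 gene between arrays, and not different genes with each other, since probes differ in their response. No difference has a replicate check or a p-value.

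Markers of the labelled cells and of other cell types were read on the same arrays. The log2 signal of Corin was 13.10 and 11.13 in the cultured CORIN+ and CORIN- cells, and 11.43 and 7.28 in the fetal ones. The cultured CORIN- cells, negative for the protein at the sort, thus had a Corin signal close to that of fetal CORIN+ cells. Of 8 neural progenitor genes, 7 were lower in culture than in the fetus in each CORIN gate, and the same number, 3, passed 2-fold in each. Over all genes, 4.37% and 3.52% were at least 2-fold lower in culture in the CORIN+ and CORIN- comparisons. Pax6 was at 6.52 and 6.67 in the cultured cells, below the background mark described later, against 9.79 and 11.01 in the fetal cells. Hes5, a Notch target, was 3.92-fold and 6.78-fold lower in culture in the CORIN+ and CORIN- comparisons, and Fabp7, a gene of radial glia, 2.64-fold and 4.59-fold lower. Sox2 lay between 12.08 and 12.75 on the 4 arrays. Lmx1a has no cluster of its own symbol and was not analysed here. In the fetal VM, 9 of 10 macrophage genes and 12 of 12 genes of mesenchyme and meninges passed 2-fold with the higher signal in CORIN+ cells. Over all genes, 3.16% did so. Of 9 pluripotency genes, 8 passed 2-fold in the ESC-derived pair with the lower signal in CORIN+ cells, beside 0.522% of all genes. In sorted bulk RNA, fewer cells of a type and less RNA per cell cannot be told apart.

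Classical cadherins span the membrane, bind to cadherins of the next cell through their outer repeats, and hold catenins on their inner tail, which tie the junction to actin. Type I members (Cdh1, Cdh2, Cdh3 and Cdh4) give strong adhesion to whole tissues, and the passage from epiblast to neural plate is known for an exchange of E-cadherin for N-cadherin. Type II members (Cdh6, Cdh7, Cdh8, Cdh11 and Cdh20) are expressed in patches of the developing brain and help to set apart its regions and nuclei. Cdh13 (T-cadherin) has no membrane-spanning part or tail and is held by a lipid anchor, so it is a cadherin of another build.

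**Figure D1:**
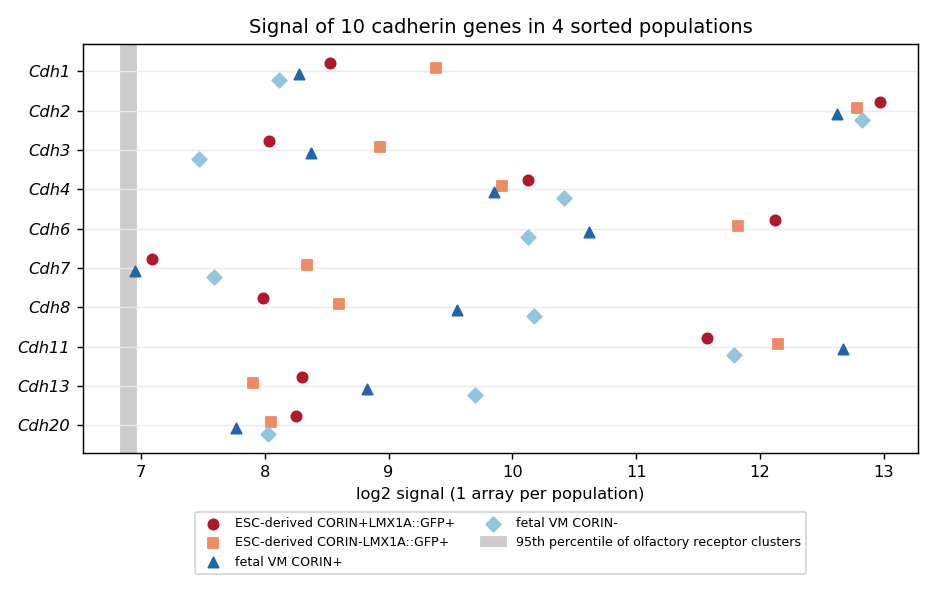
Log2 signal (horizontal axis) of the 10 cadherin genes (rows) in 4 sorted populations, 1 point per array, with no replicates. The grey band spans, over the 4 arrays, the 95th percentile of the olfactory receptor clusters. Cdh2 spans 0.35 between its arrays, Cdh8 spans 2.18, and Cdh7 in fetal CORIN+ cells (6.95) lies at the edge of the band.

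All 10 genes gave a signal above that of most silent genes. Olfactory receptor genes, which are mostly silent outside the nose, have 1035 clusters on the array, with a median log2 signal of 5.50 to 5.54 and a 95th percentile of 6.84 to 6.96. Each cadherin lay above the 95th percentile of the same array in all 4 populations. Cdh7 came closest to it, at 6.95 against 6.90 in fetal CORIN+ cells. This is a rough mark of background, since probes differ in their response.

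Cdh2 (N-cadherin), the cadherin of neuroepithelial cells, varied the least of the 10. Its log2 signal was 12.97 in cultured CORIN+, 12.79 in cultured CORIN-, 12.62 in fetal CORIN+ and 12.82 in fetal CORIN- cells. The range of its signals was 1.27-fold, and its differences ran in opposite directions in the pairs, at 0.19 in the ESC-derived cells and -0.20 in the fetal VM. Cdh20, a type II cadherin that older mouse nomenclature called Cdh7 and that was told apart from the present Cdh7 by its gene identifier, had the profile closest to Cdh2. Its signal was 8.26, 8.05, 7.76 and 8.02 in the same order, with differences of 0.21 and -0.26. After each profile was centred on its mean, the distance between these genes over the 4 arrays was 0.11 on the log2 scale, the smallest among the members. Cdh4 (R-cadherin), a type I cadherin of retina and brain, was at 10.13, 9.92, 9.85 and 10.42, and thus highest in fetal CORIN- cells. It differed by 0.21 in the ESC-derived pair and by -0.57 in the fetal pair, and it lay at distances of 0.37 from Cdh2 and 0.43 from Cdh20. The other 7 members each spanned at least 2-fold over the 4 arrays.

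The epithelial cadherins Cdh1 and Cdh3 were highest in the cultured CORIN- cells. Cdh1 (E-cadherin), which holds epithelia and pluripotent cells together, had log2 signals of 8.53 and 9.38 in cultured CORIN+ and CORIN- cells and of 8.28 and 8.11 in their fetal counterparts. The array of cultured CORIN- cells stands alone, and the other 3 arrays lie close together. Cdh1 was thus at 1.80-fold between the cultured populations, with the lower signal in CORIN+ cells, and at 1.12-fold in the fetal pair, with the higher signal in CORIN+ cells. Cdh3 (P-cadherin), found in placenta and in many embryonic epithelia, was at 8.04, 8.93, 8.38 and 7.47. Its ESC-derived difference was -0.90 and its fetal difference 0.91, so the CORIN+ array was the lower of one pair and the higher of the other. In the GRCm38.p6 annotation Cdh1 and Cdh3 are neighbours, with 0 protein-coding genes between them, as are Cdh8 and Cdh11. The neighbours Cdh8 and Cdh11 differed in the fetal pair, at -0.62 and 0.88, and were close in the ESC-derived pair, at -0.61 and -0.57. Over the 4 arrays their centred profiles lay 1.60 apart on the log2 scale, and those of Cdh1 and Cdh3 0.56 apart.
In the ESC-derived pair, genes of pluripotent and epithelial cells were lower in CORIN+ cells as well. All 9 pluripotency genes were lower, with a median difference of -2.09. Among them, Nanog was 6.06-fold lower and Dppa5a 10.7-fold lower. On the arrays of cultured CORIN+, fetal CORIN+ and fetal CORIN- cells, 4, 2 and 2 of these 9 genes lay above the 95th percentile of the olfactory receptor clusters, against 9 in cultured CORIN- cells. The 11 epithelial genes were lower too, with differences from -1.09 to -0.02 and a median of -0.47. Esrp1, a splicing regulator of epithelia, was 2.12-fold lower, and the other 10 were under 2-fold. Epcam, which is found with Cdh1 on epithelial and pluripotent cells, had a difference of -0.55. The part of such cells in the Cdh1 and Cdh3 values was not tested.

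Among the type II members, Cdh7 was the only 1 of the 10 genes to pass 2-fold within a pair. Cdh7, known from migrating neural crest and from zones of the neural tube in the chick, had log2 signals of 7.09 and 8.34 in cultured CORIN+ and CORIN- cells, which differ by -1.25 or 2.38-fold. The fetal signals were 6.95 in CORIN+ and 7.59 in CORIN- cells and differed by -0.64. The CORIN+ array was the lower of both pairs, and its signals lay close to the 95th percentile of the olfactory receptor clusters (6.84 and 6.90), so the size of the folds depends on background. In the ESC-derived pair 0.371% of all genes had a larger difference in either direction. The set of start windows used here (GRCm38.p6) covers 4 of the members and leaves out the rest, though RefSeq annotates those genes too. It holds 6 windows for these 4, each from 250 bases before to 50 bases after an annotated start. They belong to Cdh6 (1), Cdh7 (3), Cdh8 (1) and Cdh20 (1). The letters CAGGTG, on either strand, are the core bound by the SNAI and ZEB repressors known from the E-cadherin promoter. They occur once in each of the 3 Cdh7 windows, at positions -24, 3 and -83 from the respective start, and not in the windows of the other 3 genes. Of all 32851 windows, 20.2% hold them. The forkhead letters TGTTTAC, on either strand, occur in 3.65% of all windows and in none of the 6. The most upstream Cdh7 window and those of Cdh6 and Cdh8, the members that passed 2-fold between culture and fetus in both CORIN gates, are shown with CAGGTG in capitals. A match of letters is no evidence of binding, and the capitals mark it in Cdh7 alone.
Cdh7, chr1:109982650-109982949, plus strand: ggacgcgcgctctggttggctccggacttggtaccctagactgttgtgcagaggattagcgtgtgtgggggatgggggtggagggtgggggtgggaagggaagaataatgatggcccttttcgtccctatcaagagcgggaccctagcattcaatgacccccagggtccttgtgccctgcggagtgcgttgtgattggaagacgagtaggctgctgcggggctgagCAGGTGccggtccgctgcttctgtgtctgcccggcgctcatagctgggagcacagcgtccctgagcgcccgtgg
Cdh6, chr15:13173626-13173925, minus strand: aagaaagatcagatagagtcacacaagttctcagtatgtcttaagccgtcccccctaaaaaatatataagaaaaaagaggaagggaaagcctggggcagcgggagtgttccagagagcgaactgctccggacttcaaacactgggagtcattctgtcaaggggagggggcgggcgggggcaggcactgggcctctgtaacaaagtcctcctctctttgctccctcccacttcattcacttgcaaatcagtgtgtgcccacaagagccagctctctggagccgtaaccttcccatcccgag
Cdh8, chr8:99416422-99416721, minus strand: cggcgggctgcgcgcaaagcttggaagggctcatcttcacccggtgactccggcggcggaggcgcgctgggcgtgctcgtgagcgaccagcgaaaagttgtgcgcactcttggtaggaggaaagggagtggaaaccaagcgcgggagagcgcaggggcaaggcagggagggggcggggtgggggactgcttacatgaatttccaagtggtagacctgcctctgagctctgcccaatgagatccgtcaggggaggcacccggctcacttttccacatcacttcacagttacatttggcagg

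Cdh8, a type II cadherin of brain nuclei and their connections, was lower in the CORIN+ population of both pairs by nearly the same amount. Its log2 signal was 7.99 and 8.60 in the CORIN+ and CORIN- cells from ESCs and 9.56 and 10.17 in those of the fetal VM. The differences were -0.61 and -0.62, and the ESC-derived arrays lay below the fetal ones. Cdh6 (K-cadherin), known from kidney and from borders of the early brain, ran the other way in both respects. It was at 12.12 and 11.82 in the ESC-derived cells and at 10.62 and 10.13 in the fetal cells, with differences of 0.30 and 0.49. Cdh6 was the only member with a higher signal in the CORIN+ array of both pairs. The 9 floor plate genes, which include the sort gene Corin, ran the same way, with 8 and 9 of them higher in the CORIN+ array and medians of 0.34 and 0.70. The 10 neuronal genes were lower in the CORIN+ array of both pairs, with medians of -0.63 and -0.54, as Cdh7 and Cdh8 were. The part of either list in these values was not tested.

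Cdh11 and Cdh13 each had opposite signs in the pairs. Cdh11 (OB-cadherin), a cadherin of mesenchyme and of parts of the neural tube, gave log2 signals of 11.57 and 12.14 in cultured CORIN+ and CORIN- cells and of 12.67 and 11.79 in fetal ones. Fetal CORIN+ cells had the highest signal, 1.84-fold above fetal CORIN- cells, while the ESC-derived difference was -0.57. The list of mesenchyme and meninges ran the same way. In the fetal pair its 12 genes had a median difference of 2.19, with log2 signals of 9.23 to 11.82 in CORIN+ cells and 6.72 to 9.68 in CORIN- cells. In the ESC-derived pair 11 of the 12 were lower in CORIN+ cells, with 4 past 2-fold and a median of -0.81. Lum was 6.71-fold higher in the first case and 2.64-fold lower in the second. Their part in the Cdh11 and Cdh3 values was not tested. Cdh13, which lacks the catenin-binding tail, was at 8.30, 7.91, 8.82 and 9.70, highest in fetal CORIN- cells. Its fetal difference was -0.87 and its ESC-derived difference 0.40, which makes it the member with the largest positive value in the ESC-derived pair.

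Seen as a group, few of the cadherins passed 2-fold within a pair, while the median size of their differences exceeded that over all genes. In the ESC-derived pair 0 members were at least 2-fold higher in CORIN+ cells, where the background over all genes is 0.376%, and 1 was at least 2-fold lower, where it is 0.522%. In the fetal pair 0 members passed 2-fold in either direction, with a background of 3.16% higher and 0.456% lower. The median size of the difference, regardless of its sign, was 0.48 over the members against 0.11 over all genes in the ESC-derived pair, and 0.59 against 0.13 in the fetal pair. All genes include those at background, and the members were chosen with earlier results of these data known. The larger median of the members is therefore a description and no test. Of the genes whose signal exceeded the array's median in 1 or both arrays of a pair, 1.4% passed 2-fold in either direction in culture and 5.65% in the fetal VM. The signed medians were -0.19 and -0.23, with 5 and 6 of the 10 members below 0.

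**Figure D2:**
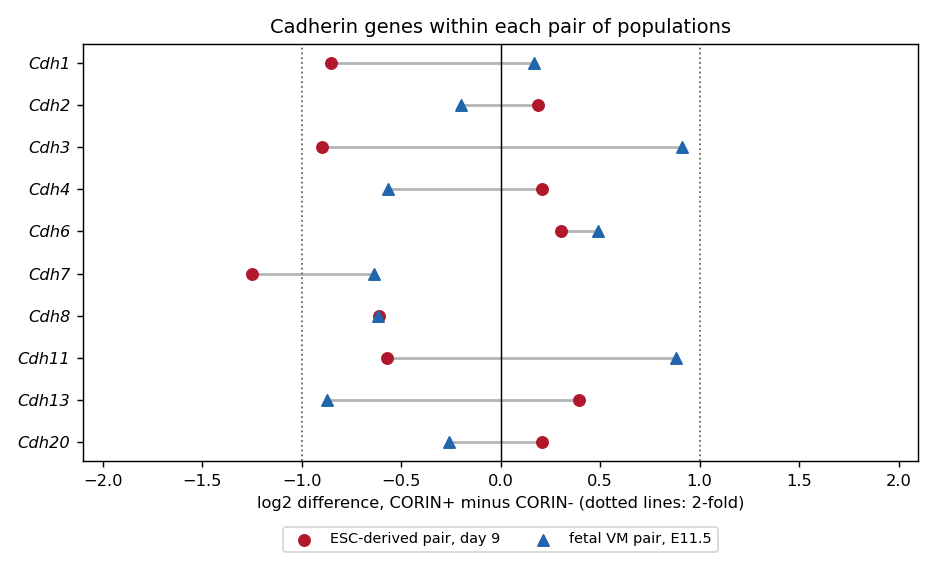
Log2 difference CORIN+ minus CORIN- (horizontal axis) of the 10 cadherin genes (rows) in the ESC-derived pair (circles) and the fetal VM pair (triangles), 1 array per population. Dotted lines mark 2-fold and grey lines join both values of a gene. Cdh7 in the ESC-derived pair (-1.25) is the only point past 2-fold, and Cdh3 spreads from -0.90 to 0.91.

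Between culture and fetus more of the cadherins passed 2-fold. Among CORIN+ populations, 1 of 10 was at least 2-fold higher in the ESC-derived cells, with a background of 2.98% of all genes, and 2 were at least 2-fold lower, with a background of 4.37%. Cdh6 was 2.84-fold higher, Cdh8 2.97-fold lower and Cdh11 2.14-fold lower. Among CORIN- populations, 3 were at least 2-fold higher, with a background of 4.54%, and 2 at least 2-fold lower, with a background of 3.52%. Cdh6 was 3.23-fold higher, Cdh3 2.77-fold and Cdh1 2.40-fold higher, while Cdh13 was 3.46-fold lower and Cdh8 2.98-fold lower. Of the genes whose signal exceeded the median in 1 or both of the arrays compared, 11.3% passed 2-fold in either direction in the CORIN+ comparison and 13% in the CORIN- comparison.
Cdh6 and Cdh8 passed 2-fold in both gates, and the other members did so in 1 gate or in none. The differences of Cdh11 were -1.10 in the CORIN+ and 0.36 in the CORIN- comparison, and those of Cdh3 were -0.34 and 1.47. For Cdh1 they were 0.25 and 1.27, and for Cdh13 -0.52 and -1.79. Cdh7 had differences of 0.14 and 0.75. Cdh2 stood at 0.35 and -0.04, Cdh4 at 0.27 and -0.50 and Cdh20 at 0.49 and 0.02. These comparisons use the same arrays as the pairs and are not independent of them. The floor plate list was higher in culture in both gates, as Cdh6 was, with 9 of its 9 genes higher in each and medians of 1.30 and 1.85. The neuronal list was lower in culture in both gates, with 7 and 8 of its 10 genes at least 2-fold lower and medians of -1.75 and -1.70. Cdh8 and Cdh13 ran in that direction, while Cdh7 (0.14 and 0.75) ran against it. Within the ESC-derived pair Cdh13 (0.40) also ran against the neuronal list. The mesenchyme list was lower in culture in the CORIN+ comparison too, with 11 of 12 genes at least 2-fold lower. The part of such cells was not tested.

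**Figure D3:**
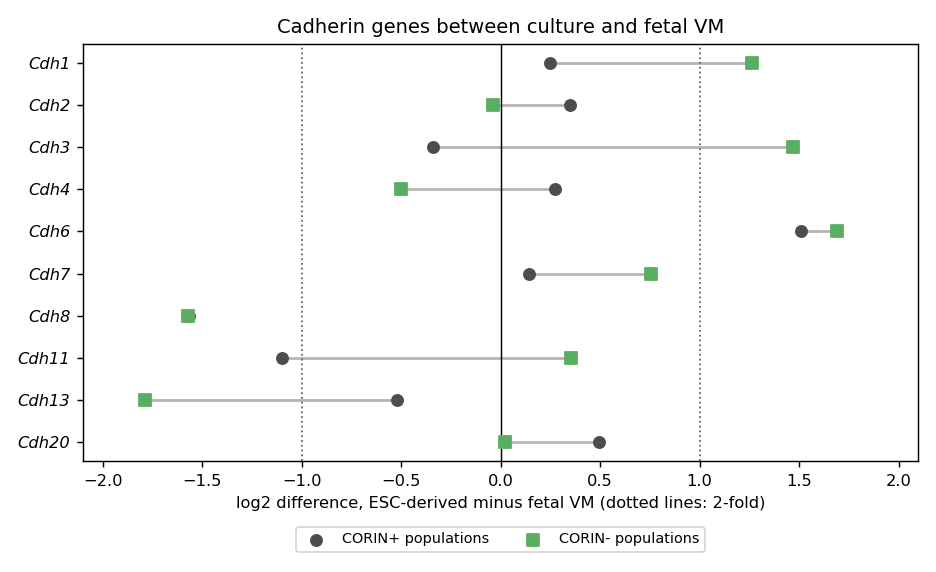
Log2 difference ESC-derived minus fetal VM (horizontal axis) of the 10 cadherin genes (rows) among CORIN+ populations (circles) and among CORIN- populations (squares), 1 array per population. Dotted lines mark 2-fold. Cdh6 lies to the right (1.51 and 1.69) and Cdh8 to the left (-1.57 and -1.57) in both gates, and Cdh3 and Cdh11 have 1 point on each side of 0.

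Of the 9 other classical cadherins on the array, Cdh5, Cdh10 and Cdh24 passed 2-fold in 1 or more comparisons. Cdh5 (VE-cadherin), the cadherin of endothelial junctions, gave log2 signals of 6.68 and 8.38 in cultured CORIN+ and CORIN- cells and of 10.98 and 8.54 in fetal ones. It was 3.24-fold lower in the CORIN+ population of the ESC-derived pair and 5.45-fold higher in that of the fetal pair, the same signs as for Cdh3 and Cdh11. Between culture and fetus it was 19.7-fold lower in the CORIN+ comparison and differed by -0.16 in the CORIN- comparison. Its signal in cultured CORIN+ cells lay below the 95th percentile of the olfactory receptor clusters (6.84). The 3.24-fold and 19.7-fold values thus depend on background. Of the 8 endothelial genes, which include Cdh5, 7 were lower in CORIN+ cells in the ESC-derived pair, with 2 past 2-fold. In the fetal pair all 8 were higher in CORIN+ cells, again with 2 past 2-fold. Cdh10, another type II cadherin, was 3.42-fold and 2.87-fold lower in culture in the CORIN+ and CORIN- comparisons, as Cdh8 was. Cdh24 was 2.11-fold lower in culture in the CORIN- comparison. The other 6 genes (Cdh9, Cdh12, Cdh15, Cdh18, Cdh19 and Cdh22) were under 2-fold in all 4 comparisons. Cdh19, a cadherin of Schwann cell precursors, had signals of 4.95 to 5.07, below the median of the olfactory receptor clusters.

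The catenins, the partners of the cadherin tail, differed less than the cadherins in the ESC-derived pair. Of 11 genes of catenins and adherens junction adaptors, 0 passed 2-fold in either pair. Their differences ran from -0.25 to 0.30 in the ESC-derived pair, where the 10 cadherins ran from -1.25 to 0.40. In the fetal pair they ran from -0.69 to 0.85, and the cadherins from -0.87 to 0.91. Ctnnb1 (beta-catenin), which binds the tail and carries Wnt signals, lay between 12.83 and 13.02 on the 4 arrays. Ctnnd1 (p120-catenin), which keeps cadherins at the surface, lay between 11.30 and 11.41. The neural paralogues were the exception between culture and fetus. Ctnna2 (alpha-N-catenin) was 3.15-fold lower in culture in the CORIN+ comparison and 4.87-fold lower in the CORIN- comparison, and Ctnnd2 (delta-catenin) 2.03-fold and 2.71-fold lower. The other 9 genes were under 2-fold there. Vcl (vinculin), which strengthens junctions under tension, had a fetal difference of 0.85. Of the 4 nectins, which start junctions beside cadherins, Nectin3 was 2.32-fold and 2.05-fold higher in culture in the CORIN+ and CORIN- comparisons, and Nectin2 2.04-fold higher in the CORIN- comparison.
The delta protocadherins, relatives with long outer parts and no catenin-binding tail, split by sign between culture and fetus. Of 9 genes, 5 were lower in culture and 4 higher in each comparison, with medians of -0.71 and -0.99. Those past 2-fold were 4 in each comparison, all lower in culture, beside 4.37% of all genes in the CORIN+ and 3.52% in the CORIN- comparison. Pcdh7 and Pcdh18 had differences of 0.93 and 0.56 in the CORIN- comparison. Pcdh9 was 4.02-fold and 3.05-fold lower, Pcdh11x 2.57-fold and 4.44-fold lower, and Pcdh19 2.28-fold and 2.38-fold lower in the CORIN+ and CORIN- comparisons. Pcdh17 passed 2-fold in the CORIN+ comparison (2.24-fold lower), and Pcdh10 just reached it in the CORIN- comparison. Within pairs, Pcdh11x in the fetal VM was 2.19-fold lower in CORIN+ cells, and the remaining values were under 2-fold.

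Of 7 known repressors of Cdh1, 4 passed 2-fold in the fetal pair with the higher signal in CORIN+ cells, beside 3.16% of all genes. Snai2 was 4.42-fold higher, Twist1 3.31-fold, Snai1 2.94-fold and Twist2 2.46-fold, while Cdh1 differed by 0.17. These genes also belong to mesenchyme, whose list was higher in the same array by the values given above, and Twist1 stands in both lists. In the ESC-derived pair 0 of the 7 passed 2-fold, with differences from -0.53 (Snai1) to 0.41 (Snai2). Zeb1 and Zeb2, which neural progenitors express, differed by 0.03 and 0.26 there and by -0.12 and 0.04 in the fetal pair. Between culture and fetus, Snai1, Snai2 and Twist2 were 3.32-fold, 2.15-fold and 3.33-fold lower in the CORIN+ comparison, and Twist1 was 4.19-fold higher in the CORIN- comparison. Of 5 measured enzymes that cut cadherins or their precursors, 0 passed 2-fold within a pair. Furin, which removes the propeptide, was 2.53-fold higher in culture in the CORIN- comparison. Adam10, which sheds the outer part of E-cadherin and N-cadherin, lay between 10.94 and 11.20.

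Several epithelial and desmosomal genes had higher signals in culture than in the fetus. Of 11 epithelial genes, 4 were at least 2-fold higher in culture in the CORIN+ comparison, beside 2.98% of all genes. In the CORIN- comparison 6 were, beside 4.54%, and the medians were 0.70 and 1.29. On the fetal CORIN+ and CORIN- arrays, 6 and 5 of the 11 lay above the 95th percentile of the olfactory receptor clusters (6.90 and 6.96). Cldn6, a claudin of early embryonic epithelia, was 7.50-fold and 9.23-fold higher. The keratins Krt8, Krt18 and Krt19 were 5.81-fold, 6.08-fold and 5.16-fold higher in the CORIN+ comparison and 9.65-fold, 9.88-fold and 8.02-fold higher in the CORIN- comparison. Esrp1 and Epcam passed 2-fold in the CORIN- comparison alone, at 2.98-fold and 2.45-fold, as Cdh1 and Cdh3 did. The fetal CORIN+ and CORIN- signals of Esrp1 (6.78 and 6.81) and Epcam (6.77 and 6.73) lay below that percentile, so their folds depend on background. Those of Krt19 (6.96 and 6.79) lay close to it or below it, so its folds depend on background as well. Of 7 desmosomal genes, Dsc2 was 2.09-fold and 2.34-fold higher, and the plaque gene Pkp2 differed by 2.14 and 2.37 on the log2 scale. Dsp was 2.93-fold and Dsg2 2.22-fold higher in the CORIN- comparison. The fetal signals of Dsc2 (6.31 and 6.13) and Dsg2 (6.28 and 6.25) also lay below that percentile.

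**Figure D4:**
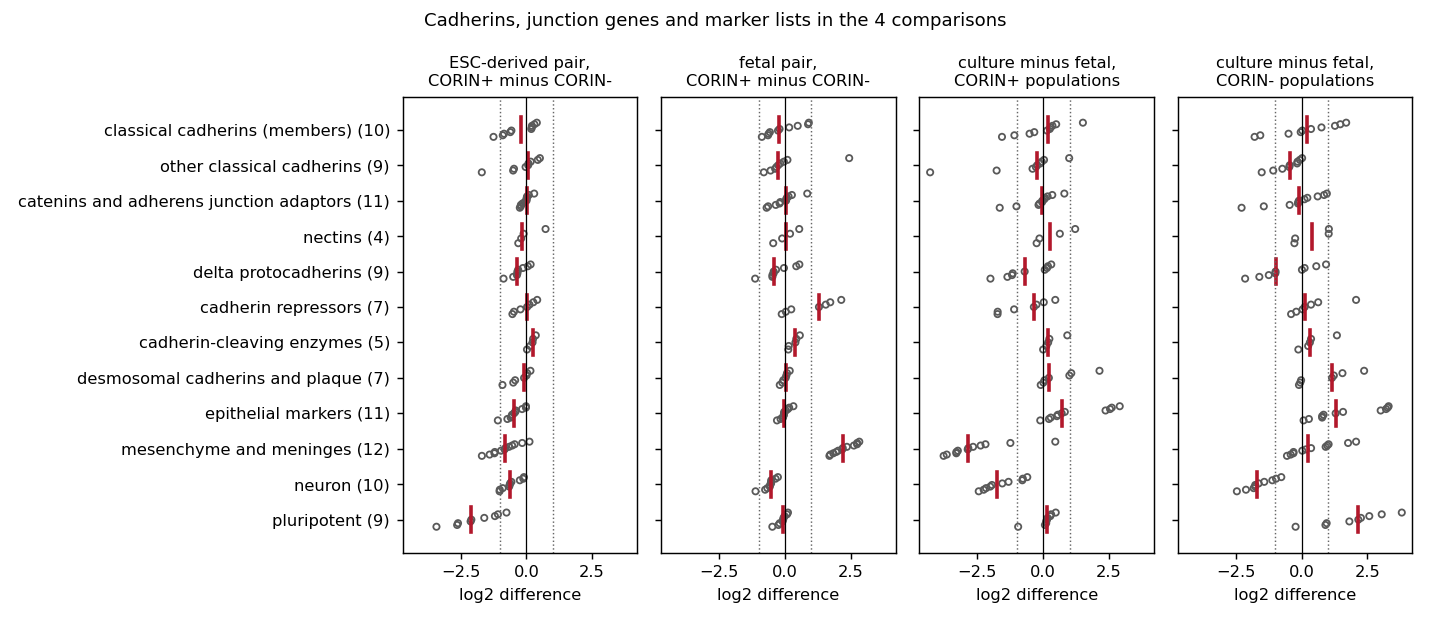
Log2 difference (horizontal axes) of each measured gene (circles) in 12 lists (rows, number of genes in parentheses) for the 4 comparisons (panels), 1 array per population. Red bars are list medians and dotted lines mark 2-fold. The catenins lie near 0 in the ESC-derived pair (median 0.00) and spread from -0.69 to 0.85 in the fetal pair (median 0.05). The epithelial genes lie to the right in the CORIN- comparison of culture with fetus (median 1.29). The mesenchyme list changes side between the pairs (-0.81 and 2.19).

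For the 7 members that spanned at least 2-fold, the genes with the closest profiles were found by the distance between centred log2 signals over the 4 arrays. With 4 points many genes come close, and between 20 genes (for Cdh7) and 301 genes (for Cdh11) lay within 0.5. Closest to Cdh1 were Sp5, a transcription factor and Wnt target, at a distance of 0.04, and Tfcp2l1, a transcription factor of naive pluripotent cells, at 0.07. Cdh3 was followed by Acta2, smooth muscle actin, at 0.20 and by Frrs1 at 0.24. Cdh6 was followed by Platr25, a noncoding transcript, at 0.09 and by Pawr at 0.12. Closest to Cdh7 were Greb1l at 0.13 and Spry1, a feedback inhibitor of FGF signalling, at 0.29. Cdh8 was followed by Phf21b at 0.05 and by Apba2, a neuronal adaptor protein, at 0.08. Closest to Cdh11 were Vnn1 at 0.10 and Rspo2, a secreted enhancer of Wnt signalling, at 0.13. For Cdh13 they were A930017M01Rik at 0.13 and Cd200, a membrane glycoprotein of neurons and leukocytes, at 0.16.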

How the data were processed

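Each sorted population was read on 1 Affymetrix whole-transcript array. The authors deposited log2 signals for 28856 transcript clusters, and the paper names GeneSpring for the analysis. For probe summarization, normalization and genome build, the method is not given in the sources used here. The scale and direction were checked against the 760 folds of the supplementary list, each of which matched a difference of deposited columns within 1%. Of the clusters, 21789 carry 1 gene symbol in the array annotation, 1621 several and 5446 none. For 21698 clusters the gene identifier led to the GRCm38.p6 symbol. The cluster with the highest mean over the 4 arrays represented a gene, which gave 19938 genes.

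Differences of log2 signals were taken within the ESC-derived and fetal pairs (CORIN+ minus CORIN-) and between culture and fetus in each CORIN gate. Genes were counted as different from 2-fold on. With 1 array per population no test was possible. The number of arrays limits the precision, and values carry no error. The members and lists were chosen with earlier results of these data known. The rule named all members, list genes at least 2-fold different in a comparison (others by count or range, a few as examples) and the 2 closest profiles of each member spanning 2-fold. List genes without a cluster of their own symbol, such as Dsc1, were left out. Alternatives were quantile normalization, centring on the median, 32 added to the linear signal, a filter on dim genes, means over clusters, and thresholds of 1.5-fold and 3-fold. The counting was tested on simulated arrays. Python 3.11.15, numpy 2.4.6, pandas 2.3.3 and matplotlib 3.10.9 were used.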

Additional observations from a re-analysis of the deposited data

Results flagged for a closer look

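Cdh3 was the member whose difference between CORIN+ and CORIN- cells reached 1.5-fold in both pairs with opposite signs. Its log2 difference was -0.90 in the cultured cells and 0.91 in the fetal VM, and the difference between the pairs was not tested. Over all genes, 93 of 19938 (0.466%) met the same rule. Cdh11, at -0.57 and 0.88, fell just short of it.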

How the results depend on the processing

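No paired analysis was possible because each population has 1 array and the labels give no replicate numbers. The counts of members past 2-fold were the same under quantile normalization, centring and 32 added to the linear signal. Means over clusters could not change a value, since each member has 1 cluster. The filter on dim genes changes no value and can only leave members out. It left out Cdh7 in the fetal pair and in the CORIN+ comparison of culture with fetus, and the counts stayed the same. The member differences and their medians shifted by less than the scaled median absolute deviation of all genes, with 1 exception. Cdh7 in the ESC-derived pair went from -1.25 to -1.08 when 32 was added. Cdh20 in the CORIN- comparison of culture with fetus went from 0.02 to -0.02 after quantile normalization. The partner and marker lists were not recomputed under these settings. The threshold set the counts. At 1.5-fold, 4 members in place of 1 were lower in the ESC-derived pair, and 2 were higher and 3 lower in place of 0 and 0 in the fetal pair. At 3-fold, 0 were lower in the ESC-derived pair, 0 were higher and 0 lower in the CORIN+ comparison of culture with fetus, and 1 was higher and 1 lower in the CORIN- comparison. The other counts at these thresholds were within 1.5 times. With 1 array per population, no value can be set against its own error, and signals near background, such as Cdh7, have folds that depend on it.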
